A study of Mus musculus with 22 samples.

Results

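Gucy2c encodes guanylate cyclase C, the receptor of the gut peptides guanylin and uroguanylin. It was followed as 1 of the 52327 gene symbols in a count table of sorted pancreatic β-cells, and was picked because its counts were lower after ablation of the other islet endocrine cells. Each of the 22 libraries came from a different male mouse, 3 months old and of mixed background. All of them, the controls included, carried GluDTR+, SstDTR htz and PpyDTR htz, alleles that put the diphtheria toxin receptor into glucagon, somatostatin and pancreatic polypeptide cells. Diphtheria toxin (DT) then kills those cells, and β-cells were collected 1 month after ablation. The 4 groups were refed DT (n = 6), refed control (n = 5), fasted DT (n = 6) and fasted control (n = 5). Fasted mice went 8 h without food, and refed mice had the same fast followed by 2 h with food. The labels do not say what the controls were injected with, nor how β-cells were told from other cells in the sort.

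Guanylate cyclase C sits in the apical membrane of intestinal epithelial cells. Guanylin and uroguanylin, and the heat-stable enterotoxin of Escherichia coli that mimics them, bind its outer domain and switch on an inner domain that makes cyclic GMP (cGMP) from GTP. In the gut the cGMP acts through the kinase encoded by Prkg2 to open the chloride channel Cftr and to slow the sodium-proton exchanger Slc9a3, which moves salt and water into the lumen. In β-cells, cGMP is better known as a product of the natriuretic peptide receptors and of the soluble cyclase that senses nitric oxide.

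The gene lies on the minus strand of mouse chromosome 6, from 136697284 to 136781765 in GRCm38 (GENCODE M21), and is annotated as protein coding, with transcripts of 27 and 26 exons and an exonic length of 3959 bases. No annotated gene overlaps it. The nearest protein-coding genes are Plbd1, 35355 bases before it, and Hist4h4, 19787 bases after it. Plbd1, a phospholipase B-like protein, had 184 counts over all 22 libraries and did not pass the filter on low counts.

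Libraries held 16584117 to 24988880 counts, and 14064 genes passed the filter. Ins1 and Ins2 took 40.3% to 51.1% of the counts, except in refed DT mouse 13, where they took 69.4%. All 10 β-cell markers passed the filter. Of the intestinal epithelium markers, 2 of 8 passed it (Vil1 and Lgals4), and Reg4 was at 0 in every library. The summed level of that list was 53.5 to 105 CPM (counts scaled to a common library total) in refed DT, 79.8 to 97.8 in refed control, 81.5 to 122 in fasted DT and 67.6 to 119 in fasted control mice. Mice 13 and 20, both refed DT, stood apart by mitochondrial counts (1.36% and 1.59%, against at most 1.14% elsewhere), and mouse 20 also had the highest immune marker sum (270 CPM, against at most 201 CPM elsewhere). The main values were therefore also computed without these 2 libraries. The summed level of the 12 acinar markers averaged 12949 CPM in refed DT and 11917 in refed control mice. It averaged 5210 CPM in fasted DT and 5857 in fasted control mice. Single libraries ran from 63.7 CPM (refed DT mouse 20) to 35618 CPM (refed DT mouse 15).

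Gucy2c rose about 2-fold on refeeding in both DT and control mice, and DT mice had about 0.56 times the control level in either feeding state. Levels are given in CPM scaled by TMM, which sets each library's total against its composition. In mouse 13, whose insulin share was highest, 350 of 19327909 counts became 32.0 CPM, so its level rests on this scaling. The 6 refed DT mice had 32.0 (mouse 13), 40.4, 67.8, 61.6, 58.3 and 73.5 CPM of Gucy2c. The 5 refed control mice had 60.1 (mouse 12), 86.0, 105, 120 and 123 CPM. The levels of both refed groups were spread widely, and 3 of the 6 refed DT mice lay below every refed control mouse while the other 3 lay above control mouse 12 but below the remaining controls. The 6 fasted DT mice had 27.8, 25.6, 28.8, 29.2, 32.9 and 19.7 CPM of Gucy2c. The 5 fasted control mice had 44.8, 44.3, 49.5, 39.9 and 65.6 CPM. All 6 fasted DT mice were below all 5 fasted controls, with no overlap, in a comparison that served to pick the gene. Here and below, the share of all genes whose groups do not overlap was not computed. Behind these levels stood 350 (mouse 13) to 2544 (mouse 21) reads per library, so that counting error alone was 1.98% to 5.35% of the value. The spread between mice was much wider than that, with a pooled within-group SD of 0.37 on the log2 CPM scale.

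**Figure D1:**
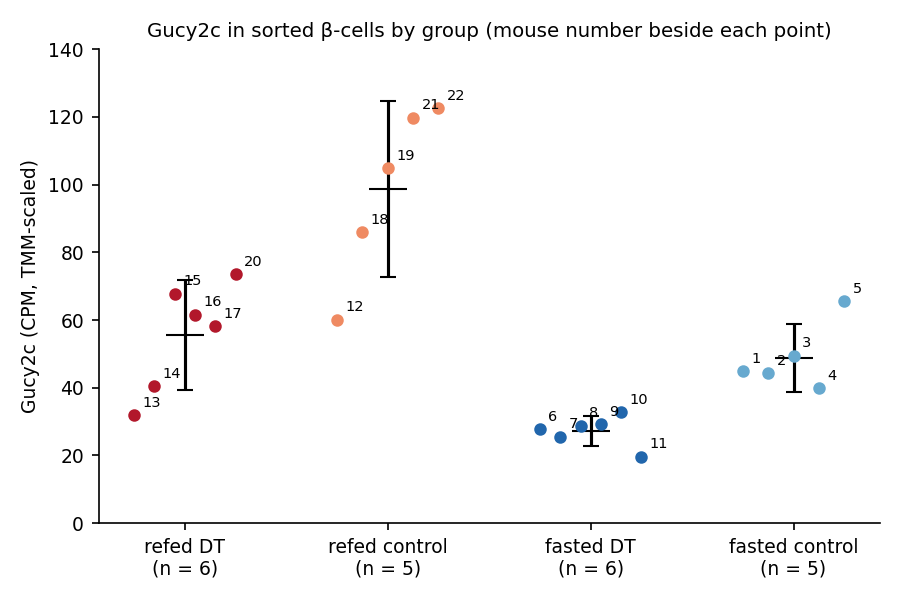
Gucy2c level in CPM (TMM-scaled) for each of the 22 mice, with the mouse number beside each point, and the mean (line) and SD (bars) of each group. The fasted DT points (19.7 to 32.9 CPM) all lie below the fasted control points (39.9 to 65.6 CPM), whereas refed DT (32.0 to 73.5 CPM) and refed control (60.1 to 123 CPM) overlap.

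Gucy2c averaged 55.6 ± 16.1 CPM in refed DT mice and 98.7 ± 26.0 CPM in refed control mice (SD, n = 6 and 5). It averaged 27.3 ± 4.43 CPM in fasted DT mice and 48.8 ± 9.98 CPM in fasted control mice (SD, n = 6 and 5). From high to low the order was therefore refed control, refed DT, fasted control, fasted DT. Refed DT and fasted control, the neighbours in the middle of this order, did not differ beyond their spread: their means stood in a ratio of 1.14 and their ranges overlapped. Within a library, Gucy2c ranked at the 61.7th to 95.4th percentile of the tested genes by CPM. Its lowest rank was in fasted DT mouse 11 and its highest in refed control mouse 22.

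The response to food was tested, since Gucy2c had not been picked by it. In DT mice, Gucy2c rose on refeeding by a log2 fold change of 1.03 ± 0.20 (SE; edgeR quasi-likelihood test with Benjamini-Hochberg adjustment, adjusted p = 0.000693). In DT mice 5 of the 6 refed animals were above every fasted one, the exception being mouse 13 (32.0 CPM, against 32.9 CPM in fasted mouse 10). In control mice it rose by 1.02 ± 0.22 (edgeR, adjusted p = 0.00162), and 4 of the 5 refed animals were above every fasted one, the exception being mouse 12. Calls of this kind were common: 24.4% of tested genes passed the threshold for refeeding in DT mice and 23.3% in control mice, with 10.8% and 10.9% called higher, and 13.5% and 12.3% called lower. Averaged over DT and control mice, the rise was 1.02 ± 0.15 (edgeR, adjusted p = 1.12e-05), a fold of 2.03. For this average 38.9% of genes were called, 17.2% as higher and 21.7% as lower, and the median over all genes was −0.06. A larger positive value was seen for 466 genes, or 3.31% of those tested. Permuting the refed and fasted labels over every split of the mice (exact test, both sides, on log2 CPM) gave p = 0.00433 in DT mice (924 splits, smallest possible p 0.00216) and p = 0.0159 in control mice (252 splits, smallest possible p 0.00794). Without mice 13 and 20 the rise in DT mice was 1.13 ± 0.19 (edgeR, adjusted p = 0.000194). The acinar marker sum was also higher in the refed groups on average. With that sum as a covariate, the rise averaged over DT and control mice was 1.05 ± 0.16 (edgeR, adjusted p = 2.52e-05).

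The difference between DT and control mice is what singled the gene out, so it is described without a test. On the log2 scale of the edgeR fit, Gucy2c differed by −0.83 ± 0.20 (SE) between DT and control in refed mice. In fasted mice the DT minus control value was −0.84 ± 0.20. The average of both was −0.83 ± 0.14, a fold of 0.562. These SEs make no allowance for the gene having been picked on this difference. Over all 14064 genes the median of the averaged DT effect was 0.01, 90% of genes lay between −0.41 and 0.64, and 141 genes (1.00%) had a lower value than Gucy2c. Few genes were called for ablation: 0.0356% in refed mice, 0.0284% in fasted mice and 0.206% for the average. Without mice 13 and 20 the value in refed mice was −0.77 ± 0.20. In bulk libraries of this kind, fewer cells with the transcript and less of it per cell cannot be told apart.

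The DT effects in the 2 feeding states were then compared with each other. The effect in refed minus that in fasted mice was 0.01 ± 0.29 on the log2 scale (edgeR interaction test, adjusted p = 0.997), with an approximate 95% interval of −0.59 to 0.61. Differences within that interval were therefore not excluded, and the size that could have been detected with these mice was not computed. The interaction was called for 0.00711% of genes. Both DT effects were known when Gucy2c was picked. Neither the p-value nor the interval of its interaction makes allowance for that, so they are given as a description.

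**Figure D2:**
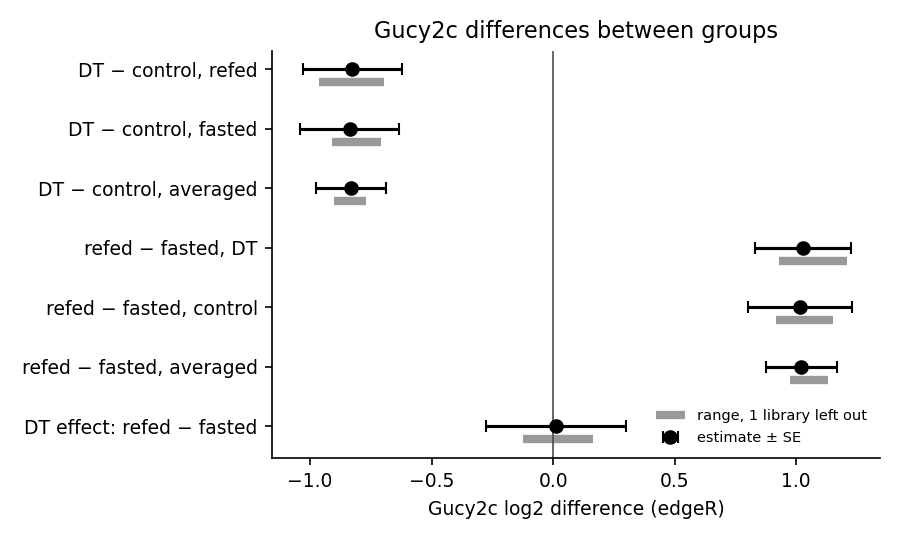
Gucy2c log2 differences from the edgeR fit (points, with SE bars), and below each the range of estimates when each of the 22 libraries was left out in turn (grey). The 3 DT minus control values lie near −0.83, the 3 refed minus fasted values near 1.02 and the difference between the DT effects near 0.01, and the grey ranges of the first 6 stay on 1 side of 0.

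The markers of the ablated cells moved with the same groups. Gcg, the α-cell hormone, was at 0 to 0.832 CPM in DT mice except in mouse 13 (25.9 CPM), and at 1.28 to 241 CPM in control mice. Sst, the δ-cell hormone, was at 0 to 0.493 CPM in DT mice except in fasted DT mouse 8 (4.71 CPM), and at 13.4 to 71.5 CPM in controls. In fasted control mice 1 to 5, Gucy2c was at 44.8, 44.3, 49.5, 39.9 and 65.6 CPM. In the same order, Gcg was at 241, 1.28, 9.08, 109 and 77.3 CPM, and Sst at 43.3, 42.7, 30.3, 28.4 and 13.4 CPM. Whether α- or δ-cells left in the sort had a part in the Gucy2c level was not tested.

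The summed level of the γ-cell list was 31.4 to 97.2 CPM in refed DT, 61.3 to 275 in refed control, 10.5 to 30.0 in fasted DT and 21.1 to 128 in fasted control mice, with 3 of the 4 genes passing the filter and Sertm1 at 0 in every library. Averaged over DT and control mice, each of those 3 rose on refeeding. The transcription factor gene Etv1 rose by 1.26 ± 0.19 (edgeR, adjusted p = 1.72e-05), Pyy, encoding peptide YY, by 1.58 ± 0.43 (adjusted p = 0.00631) and Ppy, encoding pancreatic polypeptide, by 1.52 ± 0.53 (adjusted p = 0.0269). For DT against control they had −0.48 ± 0.18, −1.29 ± 0.42 and −1.81 ± 0.52, none past the threshold (edgeR, adjusted p = 0.294, 0.214 and 0.162). Over the 22 libraries, r with Gucy2c in log2 CPM was 0.76 for Etv1, 0.67 for Pyy and 0.68 for Ppy. After subtraction of each group's mean it was 0.16, 0.04 and 0.32, or 0.09, 0.23 and 0.41 without mouse 13. Whether γ-cells left in the sort had a part in the Gucy2c level was not tested.

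Transcripts of the ligands were at or near 0. Guca2a, the guanylin gene, had no read in 20 of the 22 libraries, 1 read in refed control mouse 12 and 2 in fasted DT mouse 10. Guca2b, the uroguanylin gene, had no read in 16 libraries, and its highest counts were 11 in fasted DT mouse 10 and 9 in refed DT mouse 13 (0.822 CPM). A count of 0 allows a level of up to 3 reads, which is 0.120 to 0.274 CPM in these libraries. Neither gene passed the filter, and no fold was computed.

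Among the guanylate cyclases, Gucy2c had the highest mean level per length in every group. Per kb of exon its mean was 14.04 CPM in refed DT, 24.9 in refed control, 6.90 in fasted DT and 12.3 in fasted control mice. Npr2, the receptor of C-type natriuretic peptide, came next with 1.82, 2.31, 3.63 and 2.95 CPM per kb in the same order of groups. In fasted DT mouse 11, Npr2 exceeded Gucy2c (6.05 against 4.97 CPM per kb), and in fasted DT mouse 10 they were close (7.46 and 8.31). Npr1, the receptor of atrial and B-type natriuretic peptide, had group means of 0.623 to 1.11 CPM per kb. Gucy2e, a cyclase known from retinal photoreceptors, had 0.134 to 0.491, and the soluble cyclase subunits Gucy1b1 and Gucy1a1 at most 0.358 and 0.185. The remaining receptor cyclases were all but unread: Gucy2d and Gucy2f were at 0 in every library, and Gucy2g had 4 reads in all.

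**Figure D3:**
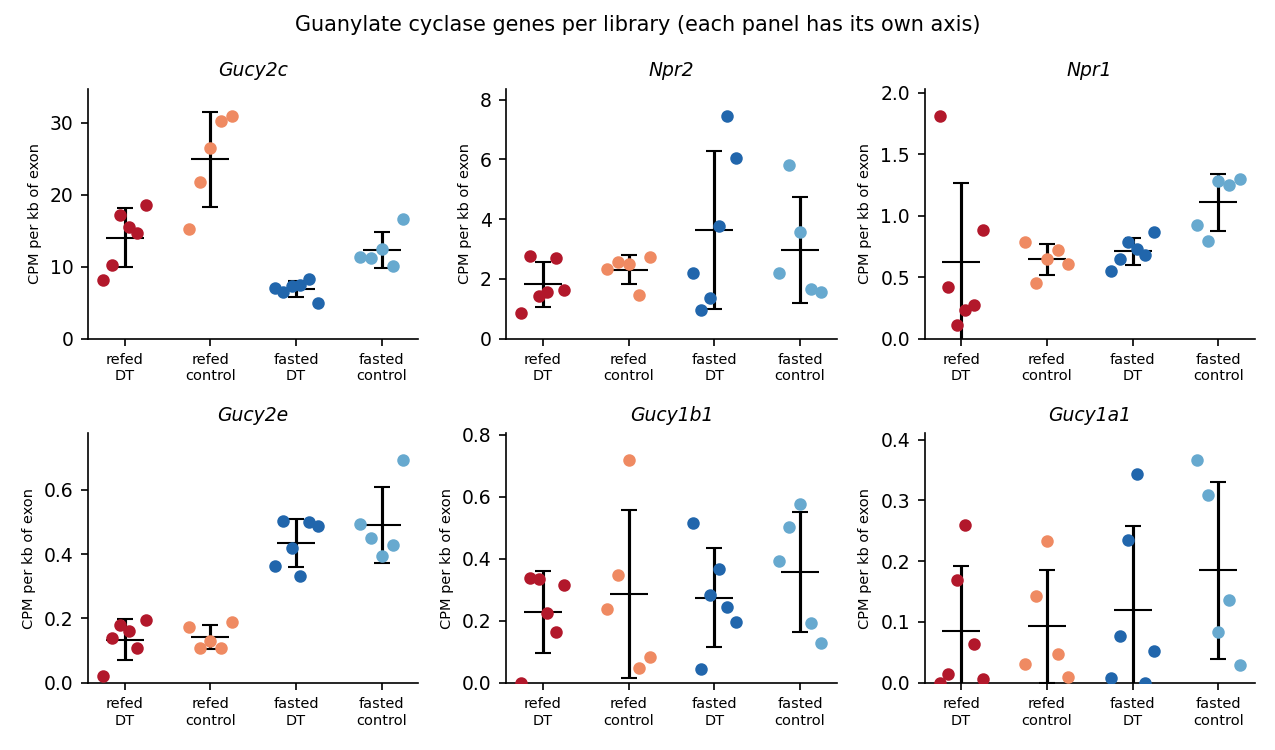
Level of 6 guanylate cyclase genes in each library, in CPM per kb of exon, with group means (lines) and SD (bars, drawn down to 0 at most), and a separate axis for each panel. Gucy2c group means (6.90 to 24.9) exceed those of Npr2 (1.82 to 3.63), and Gucy2e is lower in the refed groups than in the fasted ones.

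Gucy2e moved opposite to Gucy2c with food. It had 0.183 (mouse 13), 1.28, 1.66, 1.49, 0.990 and 1.81 CPM in refed DT mice, against 3.33, 4.64, 3.86, 3.06, 4.61 and 4.49 CPM in fasted DT mice. It had 1.60, 0.999, 1.20, 0.989 and 1.75 CPM in refed control mice, against 4.53, 4.13, 3.63, 3.93 and 6.37 CPM in fasted control mice. Refed and fasted mice did not overlap in either set. On refeeding Gucy2e fell by 1.66 ± 0.31 on the log2 scale in DT mice (edgeR, adjusted p = 0.000511) and by 1.79 ± 0.34 in control mice (adjusted p = 0.000617). Its averaged DT minus control value was −0.11 ± 0.23 (edgeR, adjusted p = 0.890), where Gucy2c had −0.83. These are low levels, resting on 2 (mouse 13) to 153 reads per library.

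Npr1 was the gene of the pathway whose ablation value turned on the refed DT libraries that stood apart. It had 8.68 (mouse 13), 2.02, 0.537, 1.13, 1.29 and 4.23 (mouse 20) CPM in refed DT mice, and 2.18 to 3.76 CPM in refed controls. It had 2.62 to 4.16 CPM in fasted DT mice, against 3.78 to 6.20 CPM in fasted controls. The DT minus control value averaged over feeding was −0.36 ± 0.31 with all libraries (edgeR, adjusted p = 0.706), and −0.98 ± 0.19 without mice 13 and 20 (edgeR, adjusted p = 0.0193). How many of all genes were called without these mice was not computed.

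The guanylin and cGMP genes were read as a group of lists: ligands, other cyclases, kinases and their substrates, phosphodiesterases, cGMP-gated channels, exporters, gut transport targets and gut transcription factors. Of 69 listed symbols other than Gucy2c, 66 were in the table and 27 passed the filter, and 8 were at 0 in every library. For DT against control averaged over feeding, none of the 27 was called by edgeR, DESeq2 or limma voom, 2 had an unadjusted edgeR p under 0.05, and their median was 0.01, as for all genes. For refeeding averaged over DT and control, 8 of the 27 (29.6%) were called, 3 higher and 5 lower, against 38.9% of all genes. Their median was −0.22, against −0.06 over all genes. In DT mice 5 were called (18.5%) and in control mice 4 (14.8%). In the interaction none of these genes, Gucy2c included, was called (smallest edgeR adjusted p 0.692), and 1 of the 27 had an unadjusted p under 0.05.

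Downstream of the receptor, the kinase gene Prkg2 was read at 0.535 to 6.95 CPM and its refeeding value was −0.22 ± 0.38 (edgeR, adjusted p = 0.686). Vasp, an actin regulator that cGMP kinases phosphorylate, had a log2 value of 0.27 ± 0.11 (adjusted p = 0.0477) and was called in only 7 of 22 fits with 1 library left out. Cftr and Slc9a3, the channel and exchanger that guanylin acts on in the gut, had 8 and 18 reads over all libraries and did not pass the filter. None of the 6 cyclic nucleotide-gated channel genes passed it either.

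Of the phosphodiesterases, which break cGMP down, 3 of 7 tested genes (42.9%) were called for the averaged refeeding effect, near the 38.9% of all genes. Pde10a, a phosphodiesterase of both cAMP and cGMP, rose: it had 16.6 to 69.1 CPM in refed DT, 37.2 to 66.9 in refed control, 3.15 to 10.3 in fasted DT and 5.62 to 14.05 in fasted control mice. Refed and fasted mice did not overlap, and the averaged log2 fold change was 2.45 ± 0.27 (edgeR, adjusted p = 6.83e-07). Pde1c, activated by calcium and calmodulin, rose by 0.61 ± 0.13 (adjusted p = 0.000783). Pde3a, which cGMP inhibits, fell by 1.15 ± 0.36 (adjusted p = 0.0145). Both averaged calls held in all 22 fits with 1 library left out. Taken separately, Pde1c was called in DT but not in control mice, and Pde3a in neither. Pde5a, which breaks down cGMP alone, had −0.48 ± 0.23 (adjusted p = 0.102), and Pde3b had 0.17 ± 0.45 (adjusted p = 0.798).

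Both exporter genes fell. Abcc5, a pump that carries cGMP out of cells, had 24.3 to 33.8 CPM in refed DT, 29.2 to 43.2 in refed control, 59.3 to 85.0 in fasted DT and 56.0 to 81.3 in fasted control mice, with no overlap between refed and fasted. Its averaged log2 value was −1.11 ± 0.09 (edgeR, adjusted p = 7.08e-09). Abcc4, a related pump of cAMP and cGMP, fell by 0.55 ± 0.13 (adjusted p = 0.00251). Of the transcription factors that drive the gene in gut, Hnf4a had −0.12 ± 0.21 (edgeR, adjusted p = 0.685) and Cdx2 had 16 reads in all and was not tested. Hnf4g, a relative of Hnf4a, fell by 0.81 ± 0.26 (adjusted p = 0.0180), a call lost without fasted control mouse 4 (adjusted p = 0.0519). Taken separately, Hnf4g was called in neither DT nor control mice.

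**Figure D4:**
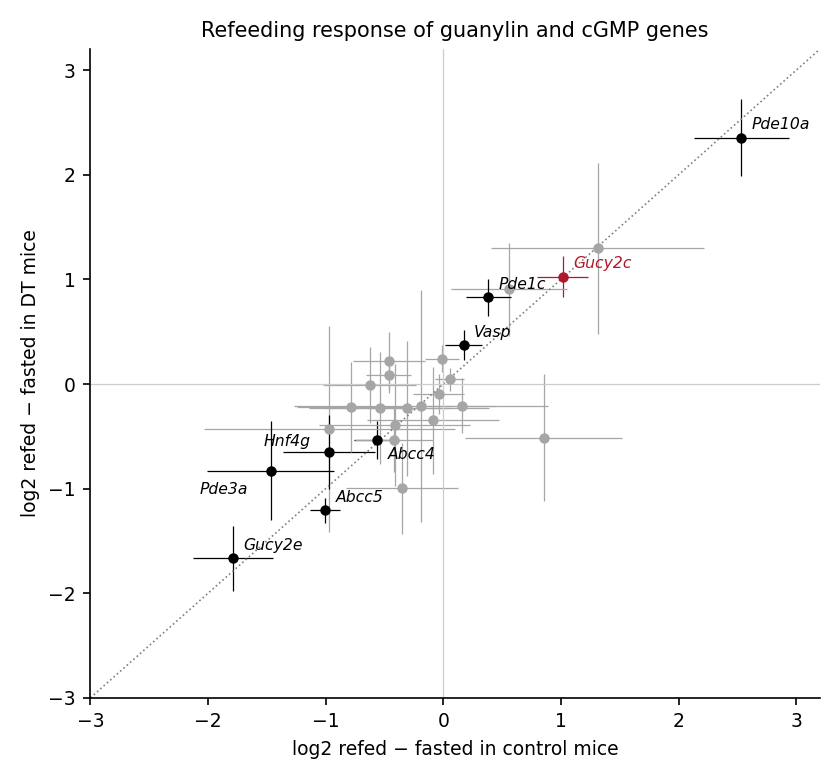
Log2 refed minus fasted differences of Gucy2c (red) and the 27 tested guanylin and cGMP genes, in DT mice (vertical) against control mice (horizontal), with SE bars. Black points passed the threshold for the averaged refeeding effect, grey ones did not, and the dotted line marks equal values. Pde10a lies farthest to the upper right, Gucy2c lies at 1.03 and 1.02, and Gucy2e lies lowest.

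Genes whose pattern was most like that of Gucy2c were found by Pearson's r of log2 CPM over the 22 libraries. The search covered 10191 genes whose log2 CPM averaged 1 or more. Genes with only a model name, such as a Gm number or Rik, were left out, as was Gucy2c itself. The libraries share 4 group means, so r mostly follows those, and it is given as a description. The median r of all these genes was 0.02, with 90% of genes between −0.60 and 0.63. The highest was Lpar1, a receptor of lysophosphatidic acid, with r = 0.87 (Spearman's rho 0.86, and 0.61 after subtraction of group means, or 0.45 without mouse 13). Lpar1 had a mean of 7.95 CPM in refed DT, 13.4 in refed control, 5.42 in fasted DT and 7.02 in fasted control mice. Other genes of high r were the membrane protein gene Ttyh1 (0.84), Ppp2r1b, a scaffold subunit of protein phosphatase 2A (0.84), Gpx2, a glutathione peroxidase known from gut epithelium (0.84), Cmbl, a hydrolase (0.84), and Gch1, the entry enzyme of tetrahydrobiopterin synthesis (0.84). Brcc3, a deubiquitinase, Pyurf and the G protein subunit gene Gng12 followed at 0.83, 0.83 and 0.82. These 9 genes all rose on refeeding in the average, by 0.45 (Gch1) to 2.04 (Ttyh1) on the log2 scale, and all 9 had negative averaged DT values, of −1.04 (Ttyh1) to −0.19 (Brcc3), none past the threshold. Both directions follow from how these genes were chosen.

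The most opposite patterns were those of Gmpr, which turns guanosine monophosphate into inosine monophosphate (r = −0.86), Kdf1 (−0.83), Ccdc162 (−0.83), Mbtd1 (−0.83) and the crystallin gene Cryba2 (−0.83). Gmpr had 86.8 to 170 CPM in refed DT, 69.7 to 105 in refed control, 133 to 205 in fasted DT and 111 to 167 in fasted control mice. Within groups, r of Gmpr with Gucy2c was −0.50, or −0.32 without mouse 13.

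**Figure D5:**
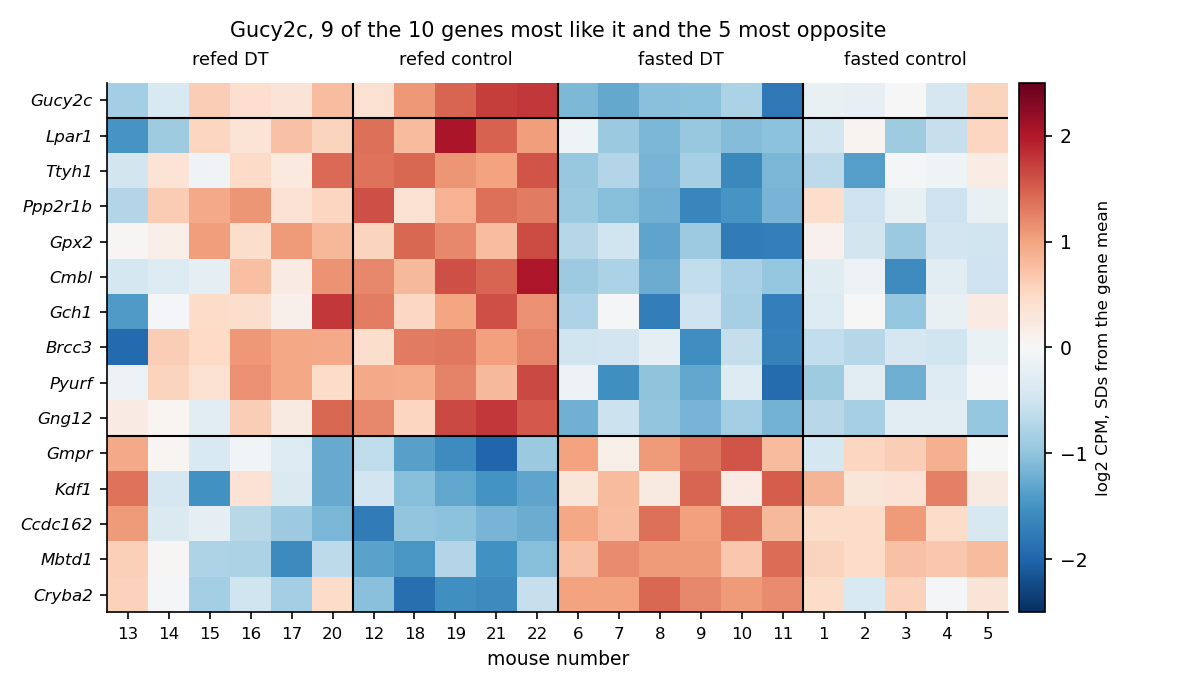
Log2 CPM of Gucy2c, 9 of the 10 genes with the highest r to it and the 5 with the lowest, as SDs from each gene's mean over the 22 libraries, with mice in columns by group. The refed control columns are red in the upper block and blue in the lower one, the fasted DT columns mostly the reverse, and refed DT mouse 13 is paler or blue in most of the upper rows.

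When each group's mean was subtracted, other genes followed Gucy2c from mouse to mouse. The highest within-group r values were those of Anks4b (0.84), a scaffold protein of intestinal microvilli, Prkag1 (0.83), a subunit of AMP-activated kinase, Map3k14 (0.80), the kinase of non-canonical NF-κB signalling, Eml3 (0.76) and Cdhr2 (0.76), a protocadherin that links microvilli. Without mouse 13 these 5 values were 0.79, 0.77, 0.74, 0.67 and 0.66. Across the 10191 genes, 90% lay between −0.43 and 0.51 on this measure. Anks4b and Gucy2c went opposite ways on refeeding: Anks4b fell by 0.59 ± 0.16 on the log2 scale (edgeR, adjusted p = 0.00644), and its r with Gucy2c without subtraction was −0.18.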

How the data were processed

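RNA of β-cells sorted by flow cytometry was amplified from low input and sequenced as single-end reads, per the labels' protocols. The authors deposited whole-number read counts per gene symbol, 1 column per mouse, with 0 columns of no sample. Per the submitters' processing notes, STAR 2.7.2b, HTSeq 0.9.1 and DESeq2 1.28.1 were used with GRCm38.p6; the strand setting and annotation release are not given in the sources used here. Without strand, reads from an antisense transcript cannot be told apart. Without molecular identifiers, counting errors and floors (3 counts) cover counting error only.

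Counts were fitted over all 22 libraries in R 4.3.3 with edgeR 4.0.16 (TMM, filterByExpr by group, 1 coefficient per group, robust quasi-likelihood F tests). Benjamini-Hochberg adjustment ran over all 14064 genes, with a threshold of 0.05. Genes left untested held at most 0.176% of a library's counts. Log2 CPM used a prior count of 2. DESeq2 1.42.0 and limma 3.58.1 (voom) were alternatives, as were DESeq2 size factors, no filter, fits on the compared groups only, library sizes without insulin genes, an acinar covariate, leaving out libraries, and exact permutation. The scripts were tested on simulated data. Each mouse number occurs once, and no libraries were identical (r between libraries 0.847 to 0.967).

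Gucy2c and the gene lists were chosen with earlier results of these data known. Named genes are every ligand and receptor cyclase, the called members of each list with up to 4 of smallest p, the 10 highest r (9 are given, and 1 is not reported here) and 5 lowest r, the 5 highest within-group r, and neighbouring genes. No sequence was printed.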

Additional observations from a re-analysis of the deposited data

Results flagged for a closer look

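Dixon's test at 95% was applied to the levels of 16 genes in the 4 groups, 64 groups in all, and picked out 3 single libraries. Chance alone picks about 1 in 20 groups. None of the 4 groups of Gucy2c was among them. Fasted control mouse 3 had 14.05 CPM of Pde10a, against 8.04 CPM in the next highest fasted control. Fasted DT mouse 8 had 85.0 CPM of Abcc5, against 66.1 CPM in the next highest fasted DT mouse. Refed DT mouse 17 had 108 CPM of Pde3b, against 37.4 CPM in the next highest refed DT mouse.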

How the results depend on the processing

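The DT and refeeding values of Gucy2c kept their direction, and the refeeding values their call, under the 7 to 9 alternatives and in all 22 fits with 1 library left out. The interaction, near 0, was never called, and its sign turned in some of them. The averaged DT value ranged from −0.85 to −0.82 over the alternatives and from −0.90 to −0.77 with 1 library left out. With 1 library left out, it ran from −0.91 to −0.71 in fasted and from −0.96 to −0.70 in refed mice. The refeeding value ran from 0.93 to 1.21 in DT mice (edgeR, adjusted p at most 0.00245), from 0.92 to 1.15 in controls (adjusted p at most 0.00643) and from 0.97 to 1.13 averaged. The interaction value was −0.003 with the acinar covariate. With 1 library left out, the interaction ran from −0.12 (without mouse 12) to 0.16 (without mouse 13). The count of called guanylin and cGMP genes stayed at 0 for DT in those fits, and became 1 (Npr1) without mice 13 and 20; the cause was not tested. For refeeding it was 8, with 7 to 10 over the alternatives and over the fits with 1 library left out. No paired analysis was possible because every mouse number occurs once. With 5 or 6 mice a group, the approximate 95% interval for the interaction of Gucy2c reached about 0.6 log2 units either way.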

Other observations

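Anks4b and Cdhr2, both among the 5 genes that followed Gucy2c most closely within groups, encode parts of the complex that links intestinal microvilli. After the values of Anks4b and Cdhr2 were seen, Ush1c, Cdhr5, Myo7b and Calml4 were looked up as further members. Of these only Ush1c was among the tested genes. The within-group r of Ush1c with Gucy2c was −0.27, or 0.04 without refed DT mouse 13. Gucy2e, which moved opposite to Gucy2c with food, had a within-group r of 0.52 with it, but of 0.17 without that mouse. Leaving out mouse 13 was chosen after its values were seen.

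Vil1, the microvillus actin bundler that marks gut epithelium, was read in every β-cell library, at 48.3 to 99.4 CPM in refed DT, 76.3 to 89.4 in refed control, 68.5 to 111 in fasted DT and 60.0 to 111 in fasted control mice. Its refeeding value was −0.11 ± 0.13 (edgeR, adjusted p = 0.543) and its averaged DT value −0.04 ± 0.13 (edgeR, adjusted p = 0.941).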
